A study of Homo sapiens with 9 samples.

Results

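Assembled transcripts are RNA models that an assembler built from the reads of these libraries because no annotated transcript accounted for them. In the deposited table they are the rows whose transcript identifier starts with TCONS, 475 of 90652 listed transcripts, and each was treated as a single transcript at its own listed span. Of these, 398 stand under 329 annotated (ENSG) genes and 77 under 56 gene identifiers that the assembly itself created (XLOC). Choosing them used the identifier alone. A model is listed only because reads of these libraries gave rise to it, so membership is not free of the measured signal. Comparisons of members with all listed transcripts carry this limit.

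All libraries came from SNU16, a gastric carcinoma cell line that the labels give as wild type, and RNA was sequenced from 3 groups of 3 libraries. One group was exposed to 7.69 µM 5-fluorouracil (5-FU), an antimetabolite that inhibits thymidylate synthase and is built into RNA and DNA. A second group was exposed to 80 µM hydrogen peroxide (H2O2), a reactive oxygen species, and the third was left untreated (control), each with a time of 24 h. Whether the 3 libraries of a group stem from different cultures is not stated, so the tests speak only to the variation among libraries, and that variation may be technical. Values are the authors' FPKM, fragments scaled to transcript length and library size, and depth is unknown because no counts were used. FPKM is relative to the library, so fewer cells making an RNA and less of it per cell cannot be told apart. The listed FPKM summed to 56096.4 to 60642.1 per library, and libraries of a group correlated at 0.774 to 0.818 across transcripts, which are not independent replicates. Of 10 epithelial markers 6 were listed and all 6 reached 0.5 FPKM, summing to 198 to 270 FPKM in 5-FU, 289 to 433 FPKM in H2O2 and 321 to 414 FPKM in control libraries. Of 5 leukocyte markers 3 were listed and of 3 endothelial markers 1, and none of the listed ones reached 0.5 FPKM. Among the fibroblast markers COL1A1 alone did, with the 3 listed ones summing to at most 0.724 FPKM in 5-FU, 0.671 FPKM in H2O2 and 0.467 FPKM in control libraries. Of MYC and FGFR2, reported as amplified in SNU16, only FGFR2 was listed. FGFR2 stood at 2.35 to 3.77 FPKM in 5-FU, 1.31 to 3.58 FPKM in H2O2 and 2.82 to 3.74 FPKM in control libraries.

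As background, RNA that does not match a known transcript can come from intronic sequence of unfinished messages, from antisense or read-through transcription, from small RNA genes lying inside larger genes, or from repeats. Repeats matter because near-identical copies share reads, and an aligner cannot always place such reads in a single copy. Where several models overlap, an estimator divides the reads between them, so a model can gain what its neighbour loses with no change in the RNA.

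The models with the highest FPKM hold, or end in, annotated small RNA genes of a multicopy family, whose copies can share reads. The model listed under SOS2 (ENSG00000100485-AS1) spans chr14:49853553-50202103 (GRCh38, as are all coordinates here), and the pair under BTD lies on chromosome 3.

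The model under SOS2, a guanine nucleotide exchange factor of Ras, stood at 2657, 1931 and 1765 FPKM in 5-FU libraries, at 1647, 2264 and 1731 FPKM in H2O2 libraries and at 2299, 2469 and 2191 FPKM in control libraries. The groups overlapped, and neither treatment passed the test against control (log2 difference -0.15, SE 0.18, limma adjusted p = 0.811 for 5-FU, and -0.32, SE 0.18, adjusted p = 0.705 for H2O2). It alone made 56.6% to 72.9% of all assembled FPKM in a library. Its span overlaps 15 V29 genes, among them the protein-coding ARF6, SOS2 and VCPKMT, the table gives no exon structure for it, and its value is not one of SOS2 messenger RNA.

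Assembled transcripts together held 7.02%, 5.88% and 5.14% of the listed FPKM in 5-FU libraries, 4.81%, 5.77% and 4.81% in H2O2 libraries and 5.76%, 5.99% and 5.47% in control libraries. Without the SOS2 model the shares were 2.35%, 2.45% and 2.23% in 5-FU, 1.87%, 2.0% and 1.94% in H2O2 and 1.69%, 1.62% and 1.67% in control libraries, and the groups no longer overlapped. Leaving out both BTD models as well gave 1.61%, 1.67% and 1.71% in 5-FU, 1.53%, 1.43% and 1.58% in H2O2 and 1.56%, 1.54% and 1.54% in control libraries. Once those 3 models are set aside, the 5-FU libraries lay above the controls by a small margin and the H2O2 libraries overlapped them. These shares are descriptions with no test.

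The names fall into 4 forms, and the listed spans show what each form marks. Names with IT (193 transcripts, median span 6124 bases) lay within their host gene in 190 cases, and 173 of them touched no V29 exon, so most are intronic. Names with OT (152, median span 16892 bases) lay within the host in 104 cases and reached past it in 36. Names with AS (53, median span 54263 bases) reached past the host in 29 cases, covered the whole host in 13 and held a V29 small RNA gene in 21. The 77 LINC names are the XLOC models (median span 5088 bases), none of which overlaps a V29 gene. Of these, 18 lie on 7 scaffolds outside the assembled chromosomes and 59 on chromosomes, 14 of them overlapping a gene of the newer RefSeq annotation.

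Levels were low and alike between the forms. The median of the mean over 9 libraries was 1.57 FPKM for AS, 1.63 FPKM for IT, 1.56 FPKM for OT and 1.37 FPKM for LINC names. FPKM is a level per length, but the table does not list the lengths used for it. A level of at least 0.5 FPKM in 3 of the 9 libraries, which the test required, was reached by 415 of the 475, namely 347 ENSG and 68 XLOC transcripts. In a library, 379 to 390 of the 475 reached 0.5 FPKM in 5-FU, 380 to 396 in H2O2 and 371 to 376 in control. Listed at 0 were 42 to 47 in 5-FU, 40 to 46 in H2O2 and 52 to 54 in control libraries. Every control library thus had fewer members at 0.5 FPKM, and more at 0, than every treated one, a description with no test.

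**Figure D1:**
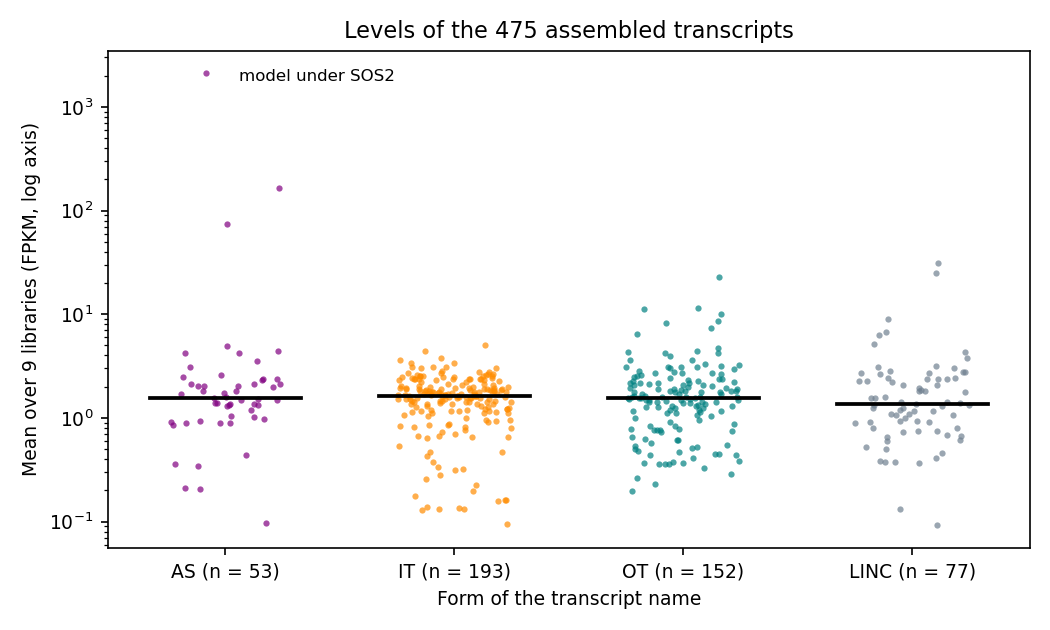
Mean FPKM over the 9 libraries (log axis) of each assembled transcript, by form of its name, with 1 point per transcript and a bar at the median. Medians lie between 1.37 and 1.63 FPKM in the 4 forms, with the SOS2 model and both BTD models far above the rest among AS names.

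Taken singly, no assembled transcript passed the test in any comparison. With limma on log2(FPKM + 0.5) and adjustment over 22618 transcripts of the whole table, 5-FU against control called 0 of 415 members (smallest adjusted p = 0.0789), where 0.00442% of all tested transcripts were called. H2O2 against control also called 0 (smallest adjusted p = 0.345, 0.0133% of all), as did 5-FU against H2O2 (smallest adjusted p = 0.198, 0.0133% of all). At an unadjusted p under 0.05 there were 65 members in 5-FU against control (15.7% of members, 10.4% of all), 37 in H2O2 against control (8.92%, against 7.6% of all) and 47 in 5-FU against H2O2 (11.3%, against 8.45% of all). Without H2O2 replicate 2 the calls were 2 in 5-FU against control, 1 in H2O2 against control and 3 in 5-FU against H2O2, all of them the BTD models or LINC65, whose values follow below.

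In 5-FU, more assembled transcripts than listed transcripts in general had all 3 libraries above all 3 controls. The models were built from reads of these same libraries, and the part of this in the excess was not tested. This held for 80 of 415 members (19.3%), where 10.7% of all tested transcripts did so, and 30 members (7.23%) lay wholly below the controls, where 7.15% of all did. The higher ones were 42 of 173 IT names, 17 of 68 LINC names, 13 of 127 OT names and 8 of 47 AS names. Against H2O2, 60 members (14.5%) were wholly higher in 5-FU and 25 (6.02%) wholly lower, where 7.48% and 6.84% of all were, and among LINC models the counts were 14 and 0. The median log2 difference to control was 0.12 for IT names and 0.05 for LINC names, against 0.05 over all tested transcripts. With median-of-ratios scaling the 5-FU counts were 75 higher and 40 lower of 416 tested members, where 9.41% and 8.8% of all transcripts were.

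In H2O2, 43 members (10.4%) lay wholly above the controls and 36 (8.67%) wholly below, where 8.02% and 5.72% of all tested transcripts did. With median-of-ratios scaling these counts turned to 32 higher and 48 lower of 416, and the shares over all transcripts turned the same way, to 6.49% higher and 7.41% lower, so the side with more members depends on the scaling. Of 68 tested LINC models 4 lay wholly above and 15 wholly below the controls, with a median log2 difference of -0.18, against 0.04 over all. Among those 15, 4 lie in one stretch of chromosome 16 and may share reads, so the LINC models are not independent members. Of 173 tested IT names 22 lay above and 9 below, with a median of 0.09. The counts by form of name were not recomputed with the scaling that turned the totals. Both treatments were compared with the same control libraries. In 3 members (0.723%) the treatments lay wholly on opposite sides of the controls, as did 0.256% of all tested transcripts.

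**Figure D2:**
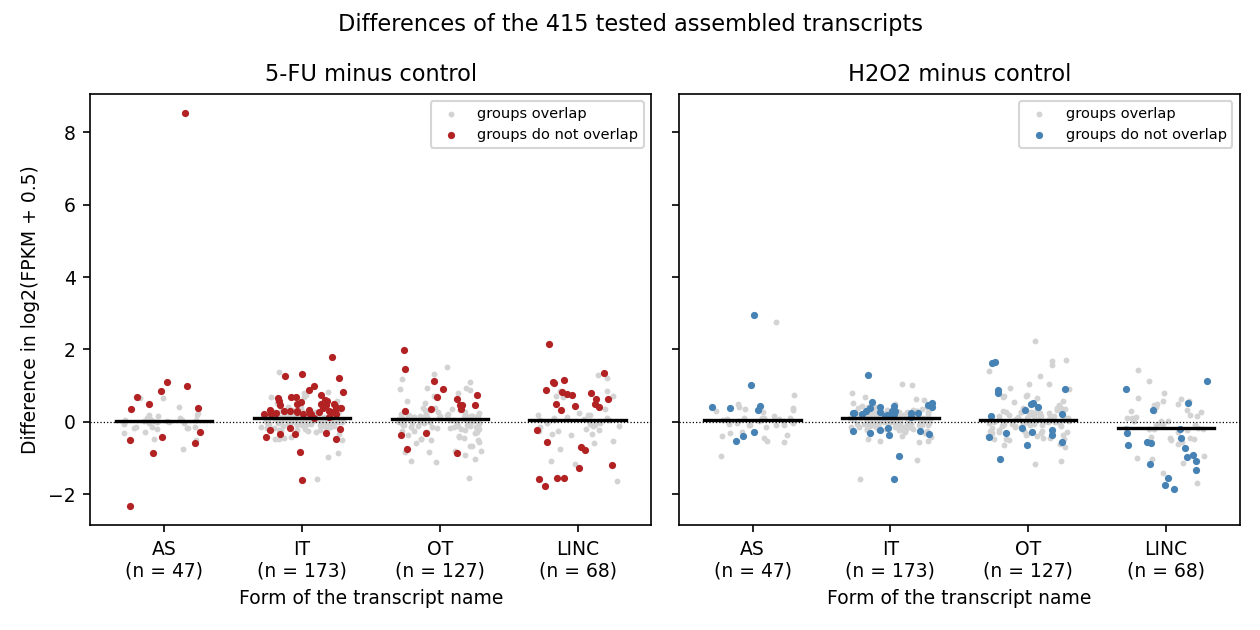
Difference from control in log2(FPKM + 0.5) for the 415 tested assembled transcripts in 5-FU (left) and H2O2 (right), by form of name, with coloured points where the 3 treated and 3 control libraries do not overlap and bars at medians. In 5-FU 42 IT points are coloured above the controls, and in H2O2 15 LINC points are coloured below them.

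All listed transcripts of a gene identifier were also summed. Models of unlike length give unlike FPKM for the same reads, so a sum can still move with the division of reads between them. Of 9947 gene sums tested, 375 held an assembled transcript, out of 385 such identifiers. In 5-FU against control limma called 7 of the 375 (1.87%), 6 higher and 1 lower, where 0.774% of all gene sums were called. Against H2O2 the 5-FU sums gave 1 call (0.0704% of all), and H2O2 against control gave 0 of 375 (smallest adjusted p = 0.105), where 0.0% of all were called and 36 members (9.6%) had an unadjusted p under 0.05, against 9.07% of all. In all 7 called genes the assembled models held practically the whole listed FPKM, so the values are those of the models. The call count in 5-FU against control was 1, 0 and 1 when 5-FU replicate 1, 2 or 3 was left out, 4, 8 and 8 when H2O2 replicate 1, 2 or 3 was, and 1 when any control was. Without both treatment libraries numbered 3, an alternative added after seeing the data, BTD alone was called. It kept its call in 16 of 18 alternatives, and the other 6 genes lost theirs in 8 to 12 of them with no change of direction.

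BTD codes for biotinidase, which frees biotin for reuse, but its 2 assembled models lie apart from the V29 gene, over ANKRD28. The BTD sum was 421, 441 and 314 FPKM in 5-FU libraries, 194, 343 and 221 FPKM in H2O2 libraries and 75.9, 49.5 and 75.8 FPKM in control libraries. All treated libraries lay above all controls, those of both treatments. The sum rose in 5-FU by 2.55 on the log2 scale (SE 0.24, limma adjusted p = 0.00872), and the H2O2 difference of 1.89 (SE 0.24) had an adjusted p of 0.105. Without 5-FU replicate 2 the 5-FU limma adjusted p was 0.0691, and with all other single libraries left out it stayed under 0.05. Both models end in a small RNA gene of a multicopy family, so which copy these reads came from is uncertain.

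The 2 intronic models among the called genes were each the only listed transcript of their gene. PSMA8-IT1 (chr18:26162609-26170322), in an intron of a proteasome alpha subunit gene known from testis, had 8.35, 6.69 and 7.90 FPKM in 5-FU, 4.69, 4.37 and 4.70 FPKM in H2O2 and 3.34, 2.65 and 3.11 FPKM in control libraries. The 3 groups did not overlap, with 5-FU highest and control lowest. PSMA8 rose in 5-FU as a gene sum by 1.21 on the log2 scale (SE 0.16, limma adjusted p = 0.0192), and in H2O2 the difference was 0.53 (SE 0.16, adjusted p = 0.437). AKAP12-IT1 (chr6:151326971-151331650), in an intron of a gene for a scaffold of protein kinase A, had 1.79, 1.66 and 2.56 FPKM in 5-FU, 1.07, 0.554 and 1.36 FPKM in H2O2 and 0.530, 0.581 and 0.504 FPKM in control libraries. Only the 5-FU libraries were clear of the controls, and AKAP12 rose in 5-FU by 1.25 (SE 0.24, limma adjusted p = 0.0484). The same values missed the threshold in the fit of single transcripts, which adjusts over more features, at adjusted p = 0.0789 for PSMA8-IT1 and 0.171 for AKAP12-IT1.

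**Figure D3:**
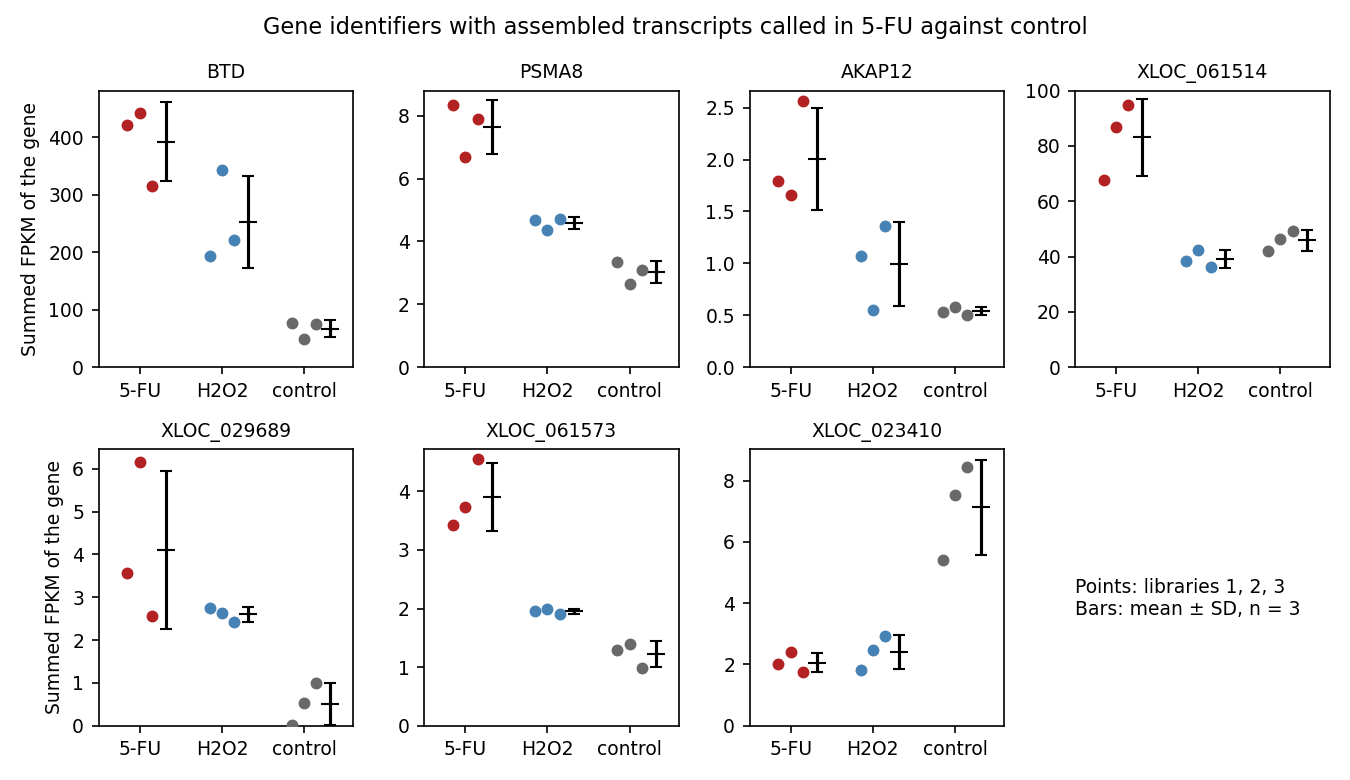
Summed FPKM per library of the 7 gene identifiers with assembled transcripts that passed the test in 5-FU against control, with points for libraries 1 to 3 and bars for mean ± SD (n = 3). In 6 panels the 5-FU points lie above the controls, and in XLOC_023410 both treatments lie below the controls.

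Of the called sums, 4 were XLOC genes, 2 of which stand on scaffolds. XLOC_061514 holds LINC71 and LINC72, both on scaffold KI270544.1, where the models cover 1194 bases. Its sum was 67.7, 87.0 and 94.6 FPKM in 5-FU, 38.4, 42.5 and 36.1 FPKM in H2O2 and 41.9, 46.3 and 49.4 FPKM in control libraries, the highest mean of any XLOC gene. The 5-FU libraries stood above both other groups, which overlapped each other. The sum rose in 5-FU by 0.84 (SE 0.15, limma adjusted p = 0.0376) against control and by 1.07 (SE 0.15, adjusted p = 0.0487) against H2O2. Both models moved alike, LINC72 holding 38.8, 48.5 and 52.9 FPKM and LINC71 28.8, 38.5 and 41.7 FPKM in 5-FU libraries, against 24.7, 21.4 and 29.5 FPKM and 17.2, 24.8 and 19.8 FPKM in control libraries. Their spans overlap, so LINC71 and LINC72 may share reads, and sharing with copies elsewhere was not tested. XLOC_061573 is LINC75 on scaffold KI270744.1, with 3.43, 3.73 and 4.55 FPKM in 5-FU, 1.96, 1.99 and 1.90 FPKM in H2O2 and 1.29, 1.40 and 0.976 FPKM in control libraries. Its 3 groups did not overlap, and it rose in 5-FU by 1.35 (SE 0.18, limma adjusted p = 0.0192). The H2O2 difference of LINC75 was 0.52 (SE 0.18, adjusted p = 0.476).

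On chromosome 19 the XLOC models overlap RefSeq genes of the SNAR family, short multicopy RNAs that bind the nuclear factor NF90. XLOC_029689 holds LINC33, LINC34 and LINC35, which overlap SNAR-A and SNAR-C genes, and LINC36 next to it overlaps SNAR-A13. The XLOC_029689 sum was 3.57, 6.16 and 2.57 FPKM in 5-FU, 2.75, 2.64 and 2.41 FPKM in H2O2 and 0.0188, 0.523 and 1.0 FPKM in control libraries, so every treated library lay above every control. It rose in 5-FU by 2.24 (SE 0.38, limma adjusted p = 0.0309), and the H2O2 difference was 1.74 (SE 0.38, adjusted p = 0.294). LINC35 was listed at 0 in all controls, with 0.545, 3.65 and 2.06 FPKM in 5-FU and 1.44, 0 and 2.04 FPKM in H2O2 libraries. Because the copies are near-identical, the place of these reads among them is uncertain.

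On chromosome 16, 6 XLOC models of 5 gene identifiers lie within 21290 bases (chr16:34572424-34593713), and 5 of the 6 had every 5-FU library below every control. Of all tested LINC models 14.7% did so, and of all tested transcripts 7.15%. Their summed FPKM was 12.2, 11.9 and 6.99 in 5-FU, 8.20, 14.4 and 9.23 in H2O2 and 28.7, 25.6 and 34.7 in control libraries. Both treatments were thus far below the controls and overlapped each other. LINC17, the longest, had 4.34, 4.60 and 3.46 FPKM in 5-FU, 3.53, 6.72 and 3.63 FPKM in H2O2 and 11.4, 8.24 and 10.8 FPKM in control libraries. XLOC_023410, the sum of LINC24 and LINC25 over the same span (chr16:34592579-34593713), had 2.03, 2.39 and 1.75 FPKM in 5-FU, 1.81, 2.46 and 2.91 FPKM in H2O2 and 5.41, 7.54 and 8.44 FPKM in control libraries. It fell in 5-FU by 1.56 on the log2 scale (SE 0.22, limma adjusted p = 0.0224), and the H2O2 difference of -1.40 (SE 0.22) had an adjusted p of 0.170. As gene sums LINC17 (log2 difference -1.19, adjusted p = 0.0573), LINC19 (-1.57, 0.0857) and LINC23 (-1.79, 0.0876) stood just outside the limma threshold in 5-FU. LINC18 was the exception, with 1.76, 1.45 and 0.796 FPKM in 5-FU, 0.828, 1.62 and 0 FPKM in H2O2 and 1.5, 1.57 and 2.38 FPKM in control libraries. The 6 models share a place and may share reads, so they are not independent of each other. The stretch as a group, and LINC18 in it, were picked out after values were seen.

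**Figure D4:**
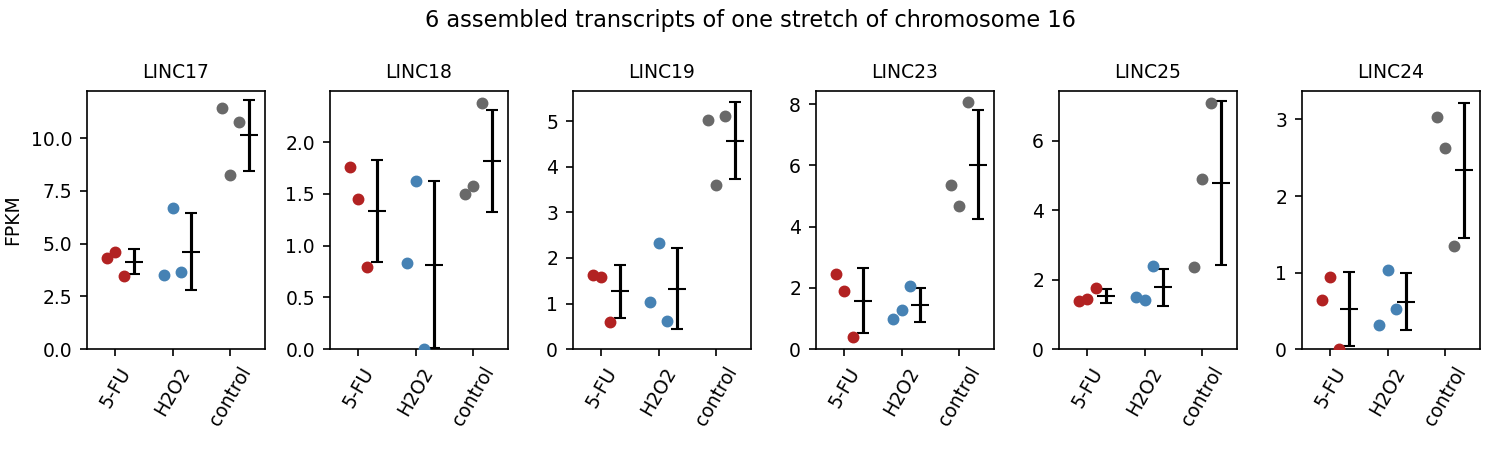
FPKM per library of the 6 assembled transcripts that lie within 21290 bases of chromosome 16, with points for libraries 1 to 3 and bars for mean ± SD (n = 3). In LINC17, LINC19, LINC23, LINC24 and LINC25 the 5-FU points lie below all control points, and in LINC18 they overlap.

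Elsewhere the XLOC models went different ways. The 7 models on chromosome 18, between positions 16768194 and 20398527, summed to 13.2, 18.0 and 19.7 FPKM in 5-FU, 9.06, 7.81 and 8.0 FPKM in H2O2 and 5.84, 10.3 and 10.2 FPKM in control libraries. The 5-FU sums lay above both other groups, while H2O2 lay within the range of the controls, and 2 of the 6 tested models had every 5-FU library above every control. LINC69 and LINC70, each alone on a scaffold, were lower in every treated library than in any control. LINC69 had 1.75, 2.59 and 2.65 FPKM in 5-FU, 2.15, 1.56 and 1.28 FPKM in H2O2 and 4.64, 3.79 and 4.61 FPKM in control libraries, differences of -0.79 (SE 0.22, limma adjusted p = 0.256) and -1.18 (SE 0.22, adjusted p = 0.345). LINC69, LINC70 and the chromosome 18 group were picked out after their values were seen.

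LINC74 shows how far 1 library can go. It lies 3965 bases past the 5.8S ribosomal RNA gene RNA5-8SN2 on scaffold KI270733.1. Its values were 1.36, 1.43 and 0 FPKM in 5-FU, 1.58, 1.04 and 0 FPKM in H2O2 and 53.2, 1.51 and 0 FPKM in control libraries. Control replicate 1 held nearly all of it, and every library numbered 3 was listed at 0. Among abundant XLOC models LINC13 (chr14:24168742-24171497) stayed close, at 2.67 to 3.74 FPKM in 5-FU, 3.13 to 4.69 FPKM in H2O2 and 3.49 to 4.29 FPKM in control libraries.

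Single ENSG models with the greatest differences and no overlap between groups did not pass the test. Among the higher ones in 5-FU, HECA-OT1 had 3.18, 2.53 and 3.87 FPKM, against 0.294, 1.54 and 0 FPKM in control libraries (log2 difference 1.97, SE 0.49, limma adjusted p = 0.229). HECA is the human homologue of the Drosophila gene headcase. NT5C2-IT3, in an intron of a cytosolic nucleotidase gene, had 3.39, 3.10 and 3.53 FPKM in 5-FU, against 2.55, 0.612 and 0.599 FPKM in control libraries (1.31, SE 0.36, adjusted p = 0.254). In it, control replicate 1 stood near the treated libraries. The 6 other listed NT5C2 transcripts summed to 9.08 to 11.1 FPKM in 5-FU and 7.56 to 9.32 FPKM in control libraries. The model's share of the gene overlapped between these groups, and its log ratio to the rest differed by 1.08 on the log2 scale (SE 0.38, limma adjusted p = 0.809). In H2O2 libraries NT5C2-IT3 had 2.88, 2.48 and 2.53 FPKM, which overlapped the controls (1.01, SE 0.36, limma adjusted p = 0.588). The other NT5C2 transcripts summed to 5.80 to 6.71 FPKM there, below every control. The share of NT5C2-IT3 in every H2O2 library lay above every control, but was not called (log ratio difference 1.43, SE 0.38, limma adjusted p = 0.716).

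Of the ENSG models wholly below the controls in 5-FU, apart from the shorter BTD model, the 3 with the greatest differences moved by less than 1 log2 unit. The model under GRIA3 (ENSG00000125675-AS1), a glutamate receptor gene, had 2.35, 2.66 and 1.11 FPKM in 5-FU, against 3.04, 3.54 and 2.92 FPKM in control libraries (log2 difference -0.58, SE 0.29, limma adjusted p = 0.519). BABAM2-IT1, in a gene for a subunit of the BRCA1-A complex, had 1.13, 1.64 and 1.73 FPKM in 5-FU, against 1.87, 2.52 and 2.46 FPKM in control libraries (-0.48, SE 0.24, adjusted p = 0.511). HKDC1-OT1, in a hexokinase gene, had 3.37, 3.62 and 3.93 FPKM in 5-FU, against 4.51, 5.12 and 4.76 FPKM in control libraries (-0.36, SE 0.17, adjusted p = 0.50). In each the groups were separate by a small gap.

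A few further models with low unadjusted p in 5-FU, named after their values were seen, lie within genes of varied roles. PCLAF-OT1, in the gene of a factor that binds the replication clamp PCNA, had 2.99, 3.09 and 3.61 FPKM in 5-FU, 1.29, 1.55 and 1.26 FPKM in H2O2 and 1.55, 1.58 and 1.37 FPKM in control libraries. The 5-FU libraries stood alone, 0.90 log2 units above the controls (SE 0.17, limma adjusted p = 0.157). NSD2-IT1, in a histone H3 methyltransferase gene, differed by 0.82 (SE 0.17, adjusted p = 0.187), SLC4A7-IT1, in a bicarbonate transporter gene, by 0.88 (SE 0.17, adjusted p = 0.171) and NCAPG2-OT1, in a condensin II gene, by 1.14 (SE 0.27, adjusted p = 0.222). In all 4 the 5-FU and control libraries did not overlap, which is likely for models picked for a low p and adds no support. They were taken from 35 ENSG models that were higher in 5-FU with an unadjusted limma p under 0.05. Of all tested transcripts 10.7% lay wholly above the controls.

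In H2O2, the model under PDPR (ENSG00000090857-AS1), a regulatory subunit of pyruvate dehydrogenase phosphatase, had 1.47, 0 and 0 FPKM in 5-FU libraries and 6.54, 5.13 and 0.979 FPKM in H2O2 libraries, and was listed at 0 in all controls (limma adjusted p = 0.498 for H2O2 against control). STX19-OT1, under a syntaxin gene, had 3.219, 2.96 and 3.93 FPKM in H2O2, against 2.0, 0.605 and 0.156 FPKM in control libraries (log2 difference 1.66, SE 0.43, adjusted p = 0.498). H2O2 libraries were higher in both, with a wide spread within a group. HLA-C-OT1 (chr6:31268911-31382025), which reaches past a class I histocompatibility gene, had 32.8, 24.3 and 34.1 FPKM in H2O2, against 22.3, 15.8 and 13.9 FPKM in control libraries (0.80, SE 0.39, adjusted p = 0.670). The 5 other listed HLA-C transcripts summed to 69.2, 75.7 and 28.7 FPKM in H2O2 and 72.9, 111 and 77.9 FPKM in control libraries, overlapping where the model did not. CCDC200-IT2 had 3.05, 2.87 and 3.15 FPKM in H2O2, against 1.82, 2.25 and 1.73 FPKM in control libraries (0.54, SE 0.19, adjusted p = 0.588).

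Among ENSG models wholly below the controls in H2O2, PDHX-OT1, in a gene for a pyruvate dehydrogenase subunit, had 0.782, 5.55 and 3.37 FPKM in H2O2, against 5.98, 5.72 and 5.88 FPKM in control libraries. Its log2 difference was -1.03 (SE 0.62, limma adjusted p = 0.721), and H2O2 replicate 2 lay just under the controls. HIF1AN-OT1, under the gene of an oxygen-dependent inhibitor of HIF-1, had 1.69, 1.88 and 2.02 FPKM in H2O2, against 2.79, 2.78 and 4.11 FPKM in control libraries (-0.64, SE 0.19, adjusted p = 0.550). Its 5-FU libraries, at 2.22, 2.39 and 2.76 FPKM, also lay below every control, by a small gap (-0.32, SE 0.19, adjusted p = 0.596). XDH-OT1, under the xanthine dehydrogenase gene, had 2.80, 2.96 and 2.28 FPKM in H2O2, against 3.79, 4.70 and 4.07 FPKM in control libraries (-0.56, SE 0.25, adjusted p = 0.653). The model under CCDC61 (ENSG00000104983-AS1) differed by -0.40 (SE 0.19, adjusted p = 0.660).

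The study's title names TNS4 and FUAT1. No assembled transcript lies within 100 kb of TNS4, and no row of the table carries the name FUAT1.

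How the signal was divided between overlapping models was examined locus by locus. Joining overlapping spans gave 392 loci, of which 339 held 1 assembled model and 53 held 2 or more (136 models in all, at most 8 in a locus). In 25 of the 53 the summed FPKM was at least 2 in every library. Across the 9 libraries the share of the leading model then ranged over a median of 34.7 percentage points. In 8 loci it ranged over less than 20 points, and in 7 over at least 50 points. The 7 were BTF3L4, CEBPZOS, VHL, BTD, CLINT1, the pair XLOC_048422 and XLOC_048423 on chromosome 5, and XLOC_061484 on scaffold GL000205.2.

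At BTD the division switched between extremes. The longer model (ENSG00000169814-AS1, chr3:15657907-15738746) held 96.7%, 96.8% and 96.8% of the locus FPKM in 5-FU, 0.744%, 96.5% and 0% in H2O2 and 2.69%, 0% and 0.432% in control libraries. The shorter one (ENSG00000169814-AS2, chr3:15721609-15738809) held the rest. All 5-FU libraries and H2O2 replicate 2 were thus on one side, and H2O2 replicates 1 and 3 and all controls on the other. The 2 models end 63 bases apart. The mean share was 96.7% ± 0.0440 in 5-FU, 32.4% ± 55.5 in H2O2 and 1.04% ± 1.44 in control libraries (SD, n = 3 each). An exact two-sided permutation test gave p = 0.1 for 5-FU against control and for 5-FU against H2O2, the smallest 3 against 3 libraries allow, and p = 0.7 for H2O2 against control. In the fit of shares across 18395 transcripts the longer model was not called in 5-FU against control (limma adjusted p = 0.583), and without H2O2 replicate 2 it was (adjusted p = 0.000466). As FPKM the longer model had 407, 427 and 304 in 5-FU, 1.44, 331 and 0 in H2O2 and 2.04, 0 and 0.328 in control libraries. Its log2 difference was 8.53 (SE 1.93, limma adjusted p = 0.198), against 2.55 for the sum. The models span 80840 and 17201 bases, and the lengths used for their FPKM are not listed. Their sum therefore cannot be read as a count of reads. The sum was 314 to 441 FPKM in the 4 libraries led by the longer model. In the 5 led by the shorter one it was 194 and 221 FPKM in H2O2 replicates 1 and 3, and 49.5 to 75.9 FPKM in controls. It thus differed with the division, and also between H2O2 and control libraries of like division. The part of the division in the called difference was not tested.

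At GL000205.2, 8 models of XLOC_061484 overlap within 17245 bases, 6 of them with enough signal to be tested. Their sum was 27.3, 25.1 and 29.4 FPKM in 5-FU, 22.2, 20.7 and 24.2 FPKM in H2O2 and 19.3, 20.4 and 19.7 FPKM in control libraries. The groups did not overlap, with 5-FU highest and control lowest, but the sum was not called (log2 difference 0.45, SE 0.13, limma adjusted p = 0.139 for 5-FU, and 0.17, SE 0.13, adjusted p = 0.720 for H2O2). LINC65 held 43.3%, 50.2% and 53.0% of it in 5-FU, 6.39%, 44.4% and 2.81% in H2O2 and 53.5%, 45.9% and 46.9% in control libraries. LINC66, whose span is nearly the same, held 40.5%, 16.1% and 37.0% in H2O2, against 12.1%, 14.9% and 14.6% in control libraries. Again H2O2 replicates 1 and 3 stood apart from replicate 2, which looked like the other groups. The exact permutation test of the LINC65 share gave p = 0.1 for H2O2 against control, p = 0.2 for 5-FU against H2O2 and p = 1.0 for 5-FU against control. Without H2O2 replicate 2, limma called the LINC65 share in H2O2 against control (adjusted p = 0.0418), and with all libraries it did not (adjusted p = 0.762).

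At the other 5 loci the leading model changed between libraries of one group. CLINT1, which codes for a clathrin adaptor, had a sum of 3.25 to 4.59 FPKM in 5-FU, 4.01 to 4.68 FPKM in H2O2 and 4.69 to 4.86 FPKM in control libraries, with every treated library below every control by a small gap. CLINT1-IT1 held 100%, 90.4% and 100% of it in 5-FU, 46.0%, 99.9% and 6.92% in H2O2 and 0%, 99.9% and 100% in control libraries. BTF3L4-OT1 held 0%, 90.5% and 58.9% of its locus in 5-FU, 100%, 93.1% and 94.8% in H2O2 and 100%, 0% and 0% in control libraries. At VHL, the gene of a tumour suppressor that marks HIF for destruction, VHL-OT1 held 70.7%, 47.1% and 1.69% in 5-FU, 53.2%, 78.9% and 50.2% in H2O2 and 0.113%, 81.1% and 1.26% in control libraries. CEBPZOS lists 6 models, 4 of them with one and the same span of 8232 bases, and a different model led from library to library. On chromosome 5, where 7 models overlap within 20052 bases (chr5:49611486-49631537), LINC45 held 65.7%, 0% and 40.0% in 5-FU, 42.2%, 40.4% and 0% in H2O2 and 11.6%, 3.50% and 33.7% in control libraries. In each of these 5 loci the leading share overlapped between either treatment and control.

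**Figure D5:**
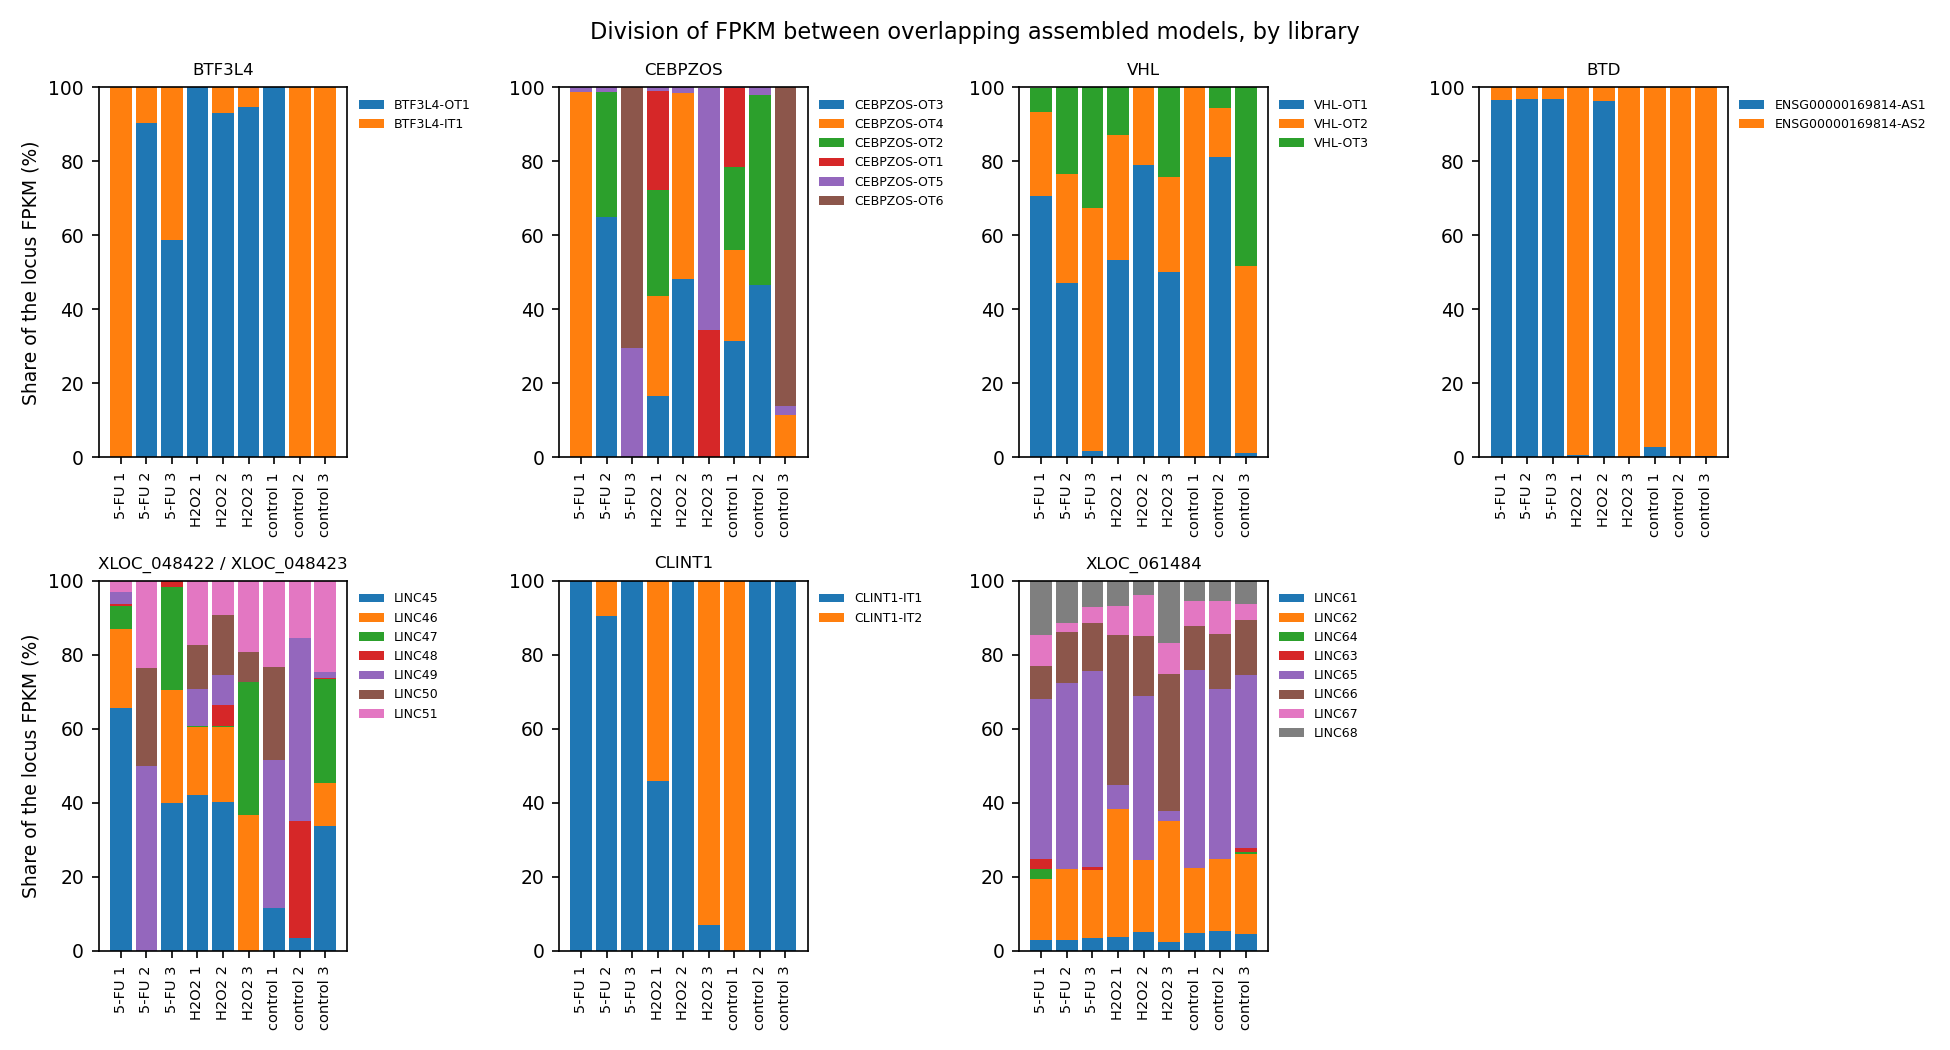
Share of the locus FPKM held by each overlapping assembled model, with 1 bar per library, in the 7 loci where the leading share ranged over at least 50 percentage points. At BTD the 5-FU bars and H2O2 2 are led by the longer model and all others by the shorter, and at XLOC_061484 H2O2 1 and H2O2 3 lose the LINC65 share that all other libraries show.

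Values far apart between libraries were also counted transcript by transcript, as a description with no test and whether or not models overlap. Of 343 members that reached 2 FPKM somewhere, 77 (22.4%) had a lowest library under 10% of the highest, against 1726 of 10565 tested transcripts (16.3%). A library lay at least 2 log2 units from both its replicates in 3 to 13 of 415 members, 0.723% to 3.13%, against 0.469% to 0.871% of all tested transcripts. H2O2 replicate 2 and control replicate 1 had most, with 13 each. TMPO-OT1, the single model under the gene of a nuclear lamina protein, had 12.1, 12.4 and 12.8 FPKM in 5-FU, 9.36, 0.692 and 9.83 FPKM in H2O2 and 10.3, 9.54 and 0.474 FPKM in control libraries. Low values fell in 1 library of each of 2 groups, and the log2 difference in 5-FU was 1.45 (SE 1.01, limma adjusted p = 0.651).

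Among genes that list annotated transcripts too, the assembled model was often not the smaller part. Of 329 ENSG genes with an assembled model, 116 list nothing else and 213 list other transcripts, where the assembled models held a median of 36.5% of the gene's listed FPKM and over 50% in 75 genes. The share of the gene was tested for 256 assembled transcripts. Limma called 0 of them in 5-FU against control (0.0109% of all tested shares called), 0 in H2O2 against control (0.0% called) and 0 in 5-FU against H2O2 (0.00544% called). At an unadjusted p under 0.05 there were 20 members in 5-FU against control (7.81% of members, 5.84% of all), 16 in H2O2 against control (6.25%, against 6.22% of all) and 18 in 5-FU against H2O2 (7.03%, against 5.41% of all). Without H2O2 replicate 2 the calls were 2, 1 and 3.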

How the data were processed

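The authors deposited FPKM values per transcript, with 9 library columns, a transcript span and no exon structure or strand. Per the submitters' processing notes the tools were StringTie, HISAT2 2.0.5 and edgeR 3.22.5, on GRCh38, with no roles given. No source used here says whether strand entered the quantification. Libraries were made with a kit that keeps strand, per the labels' protocols. From these values 3 fits were made over the whole table with limma 3.58.1 in R 4.3.3 (lmFit, eBayes with a mean-variance trend, 6 residual degrees of freedom, two-sided), on log2(FPKM + 0.5): single transcripts (22618), sums per gene identifier (9947), and the log ratio of a transcript to the rest of its gene (18395). A feature needed 0.5 FPKM in 3 of 9 libraries, and for a ratio both sides needed it. P-values were adjusted by Benjamini-Hochberg over each whole fit, with a threshold of 0.05. Log2 differences on this scale understate changes of low transcripts. Shares at single loci were compared by exact permutation tests. Positions were compared with GENCODE V29 and a RefSeq table of GRCh38.p14.

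The members, lists and tests were chosen with earlier results of these data known. Named transcripts are those called by any fit, the 8 most abundant per class, the 4 with the largest difference per class, treatment and direction (no overlap between groups, and a higher group averaging 2 FPKM or more), and the loci with strongly changing shares; any other is said to be picked after seeing values. On simulated data for 5-FU against control, with 200 changed features, the fit of single transcripts recovered 0% at a log2 change of 1 and 87% at 2 (22618 features), the gene sums 50.5% and 94% (9947), and the shares 0% and 67% (18395). The sequences of small RNA genes within the most abundant models are not reported here.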

Additional observations from a re-analysis of the deposited data

Results flagged for a closer look

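Between the 2 treatments 1 gene sum differed by the test, and 3 single transcripts stood out untested. The sum of XLOC_061514 (LINC71 and LINC72) was higher in 5-FU than in H2O2 by 1.07 on the log2 scale (limma adjusted p = 0.0487 for the difference itself). The difference stayed between 0.97 and 1.21 with any 1 library left out, and the adjusted p then ranged from 0.0504 to 0.217.

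In 3 single transcripts every 5-FU library lay above all controls and every H2O2 library below all controls. They are 0.723% of tested members, and 0.256% of all tested transcripts had the treatments on opposite sides. LINC16 had 2.78, 3.13 and 3.15 FPKM in 5-FU, 1.68, 1.81 and 1.46 FPKM in H2O2 and 1.99, 2.34 and 2.16 FPKM in control libraries, a difference between 5-FU and H2O2 of 0.71 (limma adjusted p = 0.339). CASP8AP2-IT1, in a gene for a caspase 8 associated protein, had 2.07, 2.01 and 2.65 FPKM in 5-FU, 1.14, 0.991 and 0.957 FPKM in H2O2 and 1.20, 1.31 and 1.43 FPKM in control libraries, a difference of 0.84 (adjusted p = 0.294). LINC65 had 11.8, 12.6 and 15.6 FPKM in 5-FU, 1.42, 9.19 and 0.680 FPKM in H2O2 and 10.3, 9.35 and 9.26 FPKM in control libraries, a difference of 2.30 (adjusted p = 0.391). In LINC65 the division between overlapping models moves with the level, and H2O2 replicate 2, at 9.19 FPKM, lay barely under the lowest control, at 9.26 FPKM. None of these 3 differences passed the test with all libraries, and LINC65 did without H2O2 replicate 2 (adjusted p = 0.00681).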

How the results depend on the processing

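The 59 log2 differences of named transcripts, genes and shares were recomputed under 18 alternatives each, and 0 of 1062 values changed sign. Many of the 59 were picked for a call or for no overlap between groups, so a reversal was unlikely from the start. Several alternatives, such as other filters or no mean-variance trend, leave the difference itself unchanged. The count of sign changes therefore says little about how firm these differences are. Of single assembled transcripts limma called 0 in each comparison; with no filter on low values it called 1 in 5-FU against control, and with 1 library left out 0 to 2 in 5-FU against control, 0 to 1 in H2O2 against control and 0 to 3 in 5-FU against H2O2. The same ranges, 0 to 2, 0 to 1 and 0 to 3, hold for called shares of a gene, and among the fits with 1 library left out, these calls came only without H2O2 replicate 2. For gene sums the 7 calls in 5-FU against control became 4 with no filter, 1 without both treatment libraries numbered 3 (an alternative chosen after seeing the data) and 0 to 8 with 1 library left out. The 1 call in 5-FU against H2O2 became 0 with a pseudocount of 1, with no filter, without the mean-variance trend, with array weights, without both libraries numbered 3 and with any 1 library left out (0 to 0). The cause was not tested. With a replicate block the gene calls were 0 in both of these comparisons. Deviations from the group means correlated at -0.021 to 0.058 between same-numbered libraries. The labels do not say whether the numbers mark pairs, and these low correlations cannot exclude it. The share of the longer BTD model in H2O2 minus control was 31.4 points with all libraries and -0.668 to 47.6 points with 1 left out. The LINC65 share in 5-FU minus control was 0.058 points and -2.02 to 2.81 points with 1 left out, so it has no direction. Depth is unknown, and 3 libraries per group left single transcripts with a log2 change of 1 unrecovered in simulated data.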
